A study of Zea mays with 4 samples.

Results

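The loci described here are precursors of phased small interfering RNAs (phasiRNAs), listed in the deposited table under IDs that begin with 24PHAS (84 loci) or 21PHAS (67 loci). They were chosen by ID alone and make up 151 of the 22525 gene and locus IDs. The table holds counts from 4 libraries of maize (Zea mays), each made from whole V3 seedlings with their roots and shoots, grown under a cycle of 14 h of light and 10 h of darkness. A pair of libraries came from an A188 x B73 hybrid, described in the labels as an F1 and also as HiII. The other pair came from the inbred line B73, one of the hybrid's parents. Each genotype has a library coded RPI10 and a library coded RPI11. No label says whether the codes stand for separate plants, so the spread between libraries may be technical.

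In grasses, phasiRNA precursors are long transcripts without a known protein product, made by RNA polymerase II and carrying a poly(A) tail. A microRNA cuts them, the protein SGS3 (leafbladeless1 in maize) and an RNA-dependent RNA polymerase make the cut RNA double-stranded, and a Dicer-like enzyme then slices it at a regular step of 21 or 24 nucleotides. Both classes are known best from developing anthers, where miR2118 is the trigger of most 21-nucleotide loci and miR2275 of most 24-nucleotide loci. The libraries followed a modified CEL-Seq2 protocol, which primes on poly(A), so the counts concern the precursor transcripts and not the small RNAs.

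The hybrid libraries held 1341976 and 883812 counts (RPI10, RPI11), and the B73 libraries 275271 and 403858. Depth therefore differed in the same direction as genotype. A single count stood for 0.979 and 1.42 counts per 1000000 (CPM) in the hybrid libraries and for 2.78 and 1.96 CPM in the B73 libraries. These CPM, and those below unless stated otherwise, are relative to the library total multiplied by its TMM (trimmed mean of M-values) factor, which averaged 0.778 in the hybrid and 1.29 in B73. Without TMM factors the median log2 fold change of all tested IDs shifted by -0.72, that is, towards lower values in the hybrid. In bulk RNA of a whole seedling, fewer cells that make a transcript and less of it per cell cannot be told apart.

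As a check of the labelled tissue, the leaf genes CAB1 (a light-harvesting protein) and RBCS (the small subunit of Rubisco) were counted in all 4 libraries, at 1654 ± 361 and 2017 ± 483 CPM in the hybrid and 399 ± 10.7 and 983 ± 165 CPM in B73 (SD, n = 2 libraries each). Both were higher in the hybrid (edgeR quasi-likelihood adjusted p = 0.00123 for CAB1 and 0.0392 for RBCS), as were 2 of the 6 plastid genome names matched, with 0 lower, where 25.3% of all IDs tested were higher. The part of this difference, or of depth, in the results on the loci was not tested. None of the 24 names listed for anther, tapetum and meiosis and none of the 6 listed for root matched an ID in the table, in which most genes carry only Zm00001d numbers. Whether anther tissue was present was therefore not tested.

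The 24PHAS loci as a class had lower summed levels in the hybrid than in B73. All 84 loci together held 109 and 160 counts in the hybrid libraries and 238 and 204 counts in the B73 libraries, although the hybrid libraries were deeper. On the TMM scale these were 107 and 228 CPM in the hybrid, against 662 and 399 CPM in B73. The groups did not overlap, but the libraries within each genotype were far apart, at 167 ± 85.6 CPM in the hybrid and 531 ± 186 CPM in B73 (SD, n = 2 libraries each). The log2 ratio of the means was -1.67, or 3.17-fold lower in the hybrid. Within RPI10 the log2 ratio of hybrid to B73 was -2.63 and within RPI11 it was -0.81. Without the hybrid RPI11 library the log2 ratio was -2.31, and without the hybrid RPI10 library it was -1.22. With DESeq2 size factors it was -1.60. By library totals alone it was -2.38, with means of 131 ± 70.6 CPM in the hybrid and 685 ± 254 CPM in B73. With 2 libraries against 2, an exact permutation test cannot give a p below 0.333, and none was run on these sums.

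The 21PHAS loci had far fewer counts, and as a class they were also lower in the hybrid. All 67 loci together held 15 and 24 counts in the hybrid libraries, against 19 and 33 in B73. Their summed level was 14.7 and 34.2 CPM in the hybrid, against 52.9 and 64.5 CPM in B73, so these groups did not overlap either. The means were 24.4 ± 13.8 CPM in the hybrid and 58.7 ± 8.25 CPM in B73 (SD, n = 2 libraries each), a log2 ratio of -1.27. Without 21PHAS_NO358, the most counted locus of the class, the log2 ratio was -0.98. Without the hybrid RPI11 library it was -2.0, and without the hybrid RPI10 library it was -0.78.

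**Figure D1:**
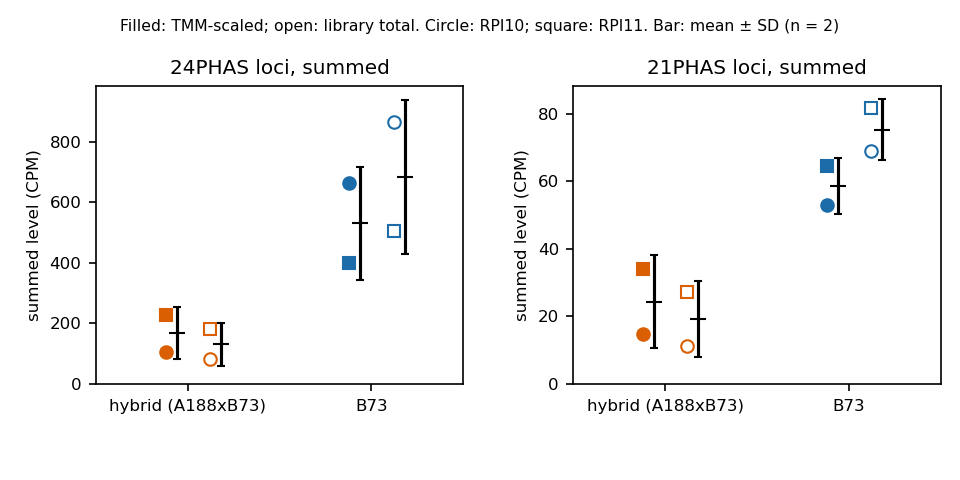
Summed level of all 24PHAS loci (left) and all 21PHAS loci (right) in each library, in CPM on a linear axis, for the hybrid and for B73; filled symbols use TMM-scaled totals and open symbols library totals, circles are RPI10 and squares RPI11, and bars give the mean ± SD of 2 libraries. On the TMM scale the hybrid libraries lie at 107 and 228 CPM for 24PHAS, below the B73 libraries at 662 and 399 CPM.

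The numbers of 24PHAS loci detected overlapped between the genotypes at full depth and did not overlap when calculated for equal depth. At full depth, 43 and 55 of the 84 24PHAS loci had at least 1 count in the hybrid libraries, against 60 and 52 in the B73 libraries. Of all IDs, 73.6% and 68.9% had a count in the hybrid libraries, against 60.5% and 69.3% in B73. If each library were drawn down to the 275271 counts of the shallowest, the expected numbers would be 16.4 and 28.8 loci in the hybrid (19.5% and 34.3%), against 60.0 and 43.9 in B73 (71.4% and 52.3%). Over all IDs in the table the same draw gives 42.4% and 44.8% in the hybrid, against 60.5% and 60.9% in B73. With totals made equal after TMM scaling, a setting chosen after the data were seen, the expected 24PHAS numbers were 23.8 and 38.6 in the hybrid and 60.0 and 44.5 in B73. These were 28.3% and 46.0% against 71.4% and 53.0% of the class. Over all IDs this setting gives 52.9% and 55.0% in the hybrid, against 60.5% and 61.6% in B73, so all IDs did not overlap either.

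For 21PHAS, 15 and 19 of 67 loci were detected in the hybrid libraries, against 15 and 25 in the B73 libraries. At the smallest total the expected numbers were 3.08 and 6.81 in the hybrid (4.59% and 10.2%), against 15 and 18.2 in B73 (22.4% and 27.2%). Only 1 count separates most of these loci from being unseen: of the loci detected, 15 of 15 and 16 of 19 in the hybrid and 13 of 15 and 20 of 25 in B73 had a single count.

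**Figure D2:**
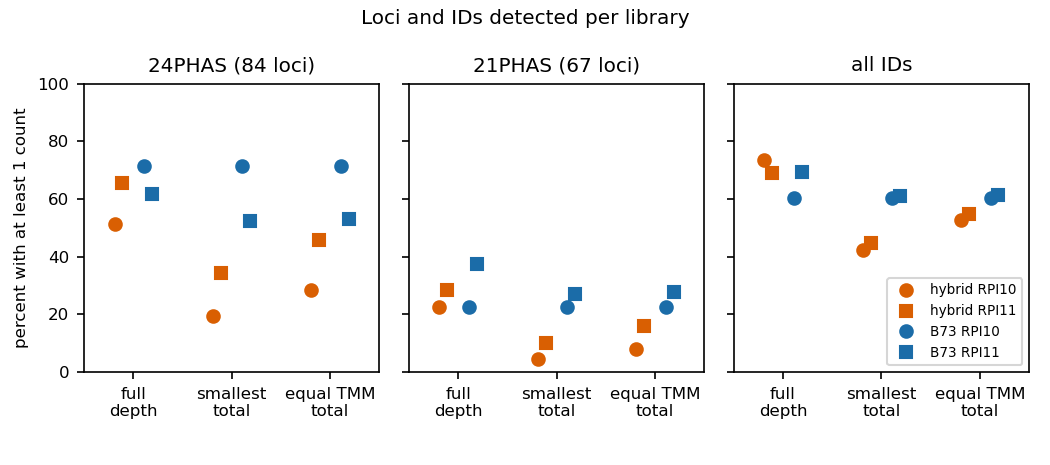
Percent of 24PHAS loci, 21PHAS loci and all IDs with at least 1 count in each library, at full depth, calculated for the smallest library total, and calculated for equal totals after TMM scaling; orange is the hybrid, blue is B73, circles are RPI10 and squares RPI11. At the smallest total the hybrid libraries lie below the B73 libraries in all 3 panels, at 19.5% and 34.3% against 71.4% and 52.3% for 24PHAS.

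Most 24PHAS loci were seen in more than 1 library and most 21PHAS loci were not. Of the 84 24PHAS loci, 23 (27.4%) had a count in all 4 libraries, 18 in 1 library and 2 in none. No 21PHAS locus was seen in more than 2 libraries: 54 of 67 (80.6%) were seen in 1 library, 10 in 2 and 3 in none. Over all IDs, 38.9% had a count in all 4 libraries and 22.6% in 1. The median locus total over the 4 libraries was 3.5 counts for 24PHAS (interquartile range 2.0 to 8.25) and 1.0 for 21PHAS (1.0 to 1.0), against 6.0 for all IDs (2.0 to 18.0). A total of 5 counts or more was reached by 35 24PHAS loci (41.7%) and by 1 21PHAS locus (1.49%), against 58.2% of all IDs. Of the loci under that total, 47 24PHAS and 63 21PHAS loci had 1 to 4 counts, too few to compare genotypes locus by locus.

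The 24PHAS counts were spread over many loci, with 3 that stood out. The 9 and 10 most counted loci of the hybrid libraries, and the 8 and 6 of the B73 libraries, held at least 50% of the class's counts in that library. The 3 loci with most counts over all libraries were 24PHAS_NO180 (79 counts), 24PHAS_NO15 (76) and 24PHAS_NO187_NO188 (72); the next, 24PHAS_NO298, had 26. The ID 24PHAS_NO187_NO188 names a pair of numbered loci that were counted as 1. Together the 3 held 23.9% and 21.3% of the class's counts in the hybrid libraries, against 35.7% and 40.2% in the B73 libraries. Pooled over libraries, that was 60 of 269 counts in the hybrid (22.3%, exact 95% interval 17.5% to 27.8%) and 167 of 442 in B73 (37.8%, 33.2% to 42.5%). Such intervals cover counting error only. They do not allow for the choice of these 3 loci by totals of the same counts, most of which came from B73. These shares are taken within the class and do not depend on the scaling between libraries.

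The spread of single loci between libraries was set against counting noise. Over 24PHAS loci with 5 or more counts in a pair of libraries, the ratio of chi-square to degrees of freedom was 0.799 between the hybrid libraries (18 loci) and 0.967 between the B73 libraries (25 loci), where counting noise alone gives about 1. Between genotypes it was 1.31 to 2.49 over the 4 pairs (20 to 24 loci). Loci are not replicates, these ratios carry no p, and with few counts per locus a ratio near 1 does not show that the makeup of a pair was the same. A smaller share in the hybrid was seen for 24PHAS_NO187_NO188, with 5.58% of the class's counts (3.15% to 9.03%) against 12.9% in B73 (9.92% to 16.4%), and for 24PHAS_NO180, with 6.69% (4.01% to 10.4%) against 13.8% (10.7% to 17.4%). The third, 24PHAS_NO15, held 10.0% of the class's counts in the hybrid (6.72% to 14.3%) and 11.1% in B73 (8.31% to 14.4%). Without these 3 loci the summed level of the other 81 was 130 ± 69.4 CPM in the hybrid and 332 ± 132 CPM in B73 (SD, n = 2), a log2 ratio of -1.35.

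**Figure D3:**
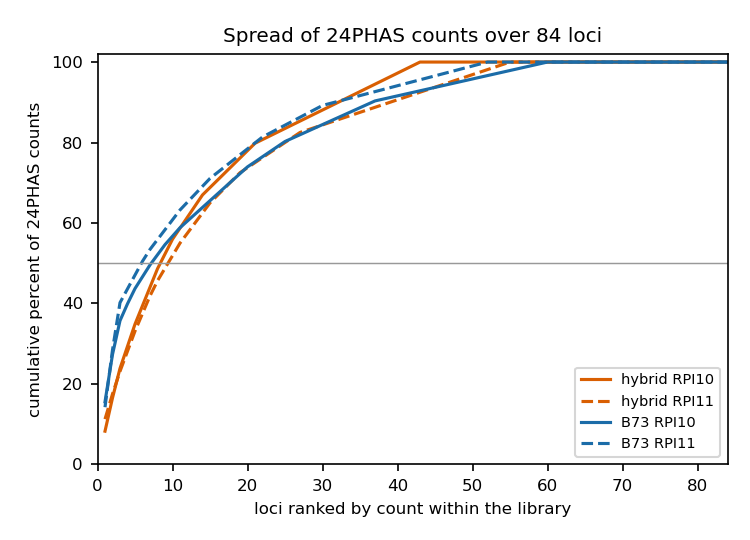
Cumulative percent of the 24PHAS counts of a library (vertical axis) over the 84 loci ranked by their count in that library (horizontal axis); orange is the hybrid, blue is B73, solid lines are RPI10 and dashed lines RPI11, and the grey line marks 50%. The B73 lines start higher, with 35.7% and 40.2% of counts in their first 3 loci, and the lines run close together further to the right.

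Locus by locus, the hybrid was tested against B73 with edgeR's quasi-likelihood test over all IDs that passed the default filter on low counts, with Benjamini-Hochberg adjustment over those IDs. Of the 3282 IDs tested, 50.6% had an adjusted p under 0.05, with 25.4% lower and 25.3% higher in the hybrid. Among the loci, 5 of the 84 24PHAS loci and none of the 67 21PHAS loci passed the filter. All 5 passed it through both B73 libraries, and only 24PHAS_NO15 reached the filter's level in a hybrid library, so a locus higher in the hybrid would have needed more counts to be tested. The 5 loci were all lower in the hybrid at an adjusted p under 0.05, and given that filter their number is no measure of the class.

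24PHAS_NO180 had 8 and 10 counts in the hybrid libraries, against 37 and 24 in the B73 libraries. Both hybrid libraries were low and the groups did not overlap, at 11.03 ± 4.53 CPM in the hybrid and 74.96 ± 39.6 CPM in B73 (SD, n = 2). The log2 fold change was -2.76 (SE 0.53, edgeR adjusted p = 0.00131). 24PHAS_NO187_NO188 had 9 and 6 counts in the hybrid libraries, against 28 and 29 in B73. Its counts were nearly equal within each genotype and the groups did not overlap, at 8.67 ± 0.187 CPM in the hybrid and 67.3 ± 14.996 CPM in B73, with a log2 fold change of -2.91 (SE 0.47, edgeR adjusted p = 0.000464). Without the B73 RPI10 library the log2 fold change of 24PHAS_NO180 was -2.12. Both loci stayed past the threshold in each of the 19 other settings that tested them. These settings reuse the same counts, so they are no independent test of either call. Both loci had passed the first filter through the B73 libraries only.

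24PHAS_NO15 had 9 and 18 counts in the hybrid libraries, against 20 and 29 in B73. The B73 libraries were nearly equal at 56.2 ± 0.748 CPM, whereas the hybrid libraries, at 17.2 ± 11.9 CPM, differed between codes. Its log2 fold change was -1.77 (SE 0.51, edgeR adjusted p = 0.0119). Without the hybrid RPI10 library it was -0.97 (edgeR adjusted p = 0.123), without the hybrid RPI11 library it was -2.47, and DESeq2 gave an adjusted p of 0.216.

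24PHAS_NO19 had 6 and 5 counts in the hybrid libraries, against 7 and 7 in B73, and 24PHAS_NO116 had 5 and 5 in the hybrid, against 6 and 7 in B73. Their raw counts were thus nearly equal, and the CPM divide them by smaller totals in B73. They reached 6.49 ± 0.882 and 6.01 ± 1.57 CPM in the hybrid, against 16.6 ± 4.09 and 15.2 ± 2.13 CPM in B73 (SD, n = 2). The log2 fold changes were -1.31 (SE 0.48, edgeR adjusted p = 0.0440) for 24PHAS_NO19 and -1.34 (SE 0.49, edgeR adjusted p = 0.0483) for 24PHAS_NO116. Both calls were lost in edgeR when DESeq2 size factors replaced TMM (adjusted p = 0.0527 and 0.0574) and with most other settings. Leaving out any 1 library ended the call of 24PHAS_NO19 (edgeR adjusted p = 0.233 to 0.532), and leaving out the RPI10 or the RPI11 library of B73 ended that of 24PHAS_NO116 (0.382 and 0.301).

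With every ID of 5 or more counts in total admitted, 13112 IDs were tested, including 35 24PHAS loci and 21PHAS_NO358. Over all IDs, 76.6% of the counts came from the hybrid libraries. The 24PHAS class instead had 269 counts from the hybrid and 442 from B73, so its loci reached that total more through B73. With 5 or more counts as the rule, 6.8% of all IDs were lower in the hybrid and 10.1% higher (edgeR adjusted p under 0.05). Of the 35 24PHAS loci, 5 were lower and 0 higher, and no locus with a positive fold change had an unadjusted p under 0.05 in edgeR or DESeq2. The 5 were 24PHAS_NO180, 24PHAS_NO15 and 24PHAS_NO187_NO188 with 24PHAS_NO174 and 24PHAS_NO214. With the TMM factors of the first fit 9 loci were lower, against 9.68% of all IDs, and with library totals alone 12, against 15.8% of all IDs. Leaving out the B73 RPI10 library left 2 lower among 25 loci tested, against 5.24% of all IDs, and leaving out the hybrid RPI10 library left 3 among 33, against 5.62%. In this fit the call of 24PHAS_NO15 was lost without the hybrid RPI10 library (edgeR adjusted p = 0.215), the B73 RPI10 library (0.0734) or the B73 RPI11 library (0.152).

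24PHAS_NO174 had 1 and 1 counts in the hybrid libraries, against 6 and 5 in B73, with 1.20 ± 0.315 CPM in the hybrid and 13.2 ± 4.89 CPM in B73. In this wider fit its log2 fold change was -3.01 (SE 0.95, edgeR adjusted p = 0.0214). 24PHAS_NO214 had 1 and 0 counts in the hybrid libraries, against 5 and 5 in B73, with a log2 fold change of -3.70 (SE 1.11, edgeR adjusted p = 0.0159). Pooled over libraries its ratio of hybrid to B73 was 0.0505, with an exact 95% interval from 0.00116 to 0.355 for counting error. Both loci reached the total of 5 counts through B73, so the filter let them in for being high there. Their adjusted p-values are no measure of the class, and both calls rested on few counts. That of 24PHAS_NO174 was lost without the hybrid RPI10 library (edgeR adjusted p = 0.0996) or the B73 RPI10 library (0.162), and that of 24PHAS_NO214 without the hybrid RPI11 library (0.0597) or the B73 RPI10 library (0.0908).

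**Figure D4:**
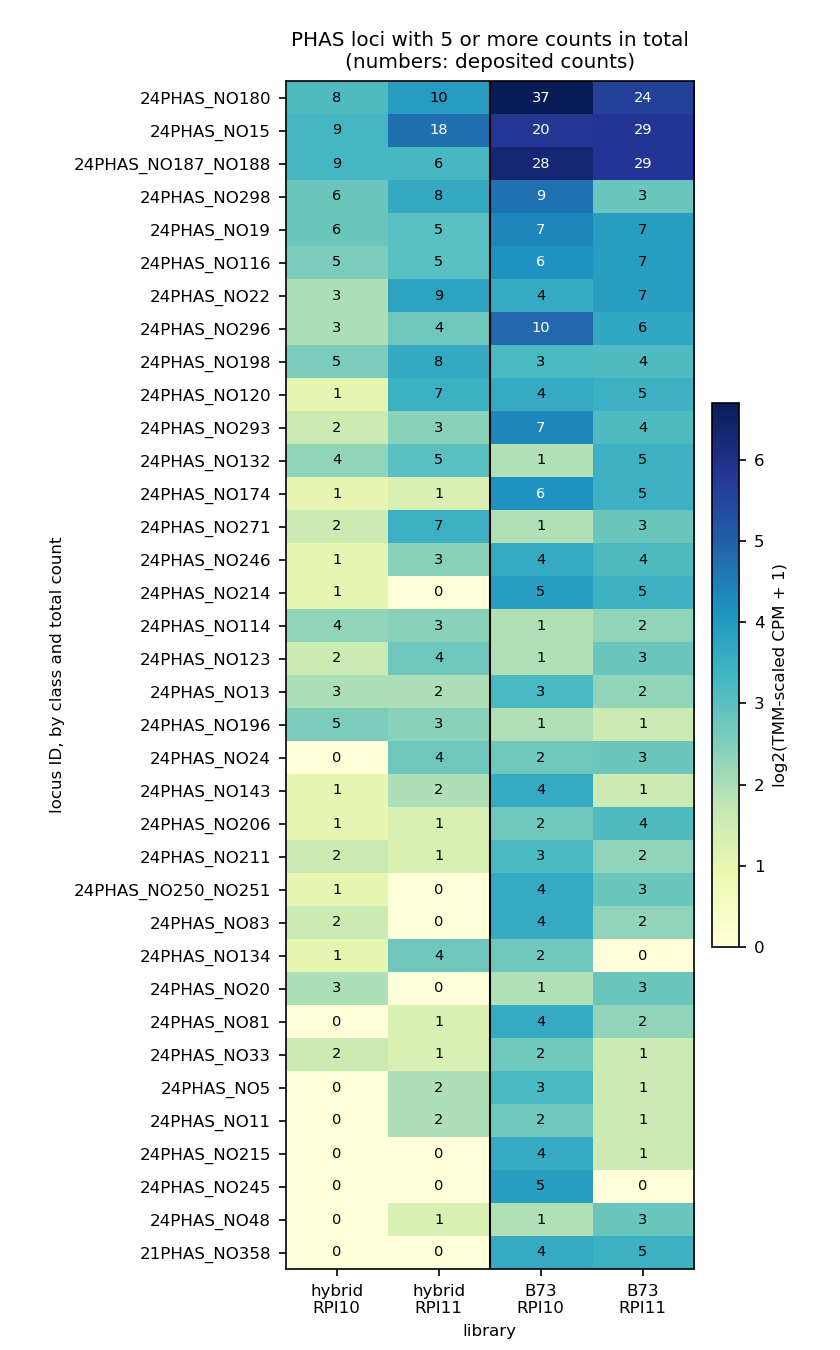
Counts of the 35 24PHAS loci and the 1 21PHAS locus with 5 or more counts in total, 1 row per locus and 1 column per library, with the hybrid libraries left of the line and the B73 libraries right of it; the numbers are deposited counts and the colour is log2(TMM-scaled CPM + 1). The darkest cells are the B73 libraries of 24PHAS_NO180, 24PHAS_NO15 and 24PHAS_NO187_NO188, with 20 to 37 counts.

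Most of the 35 loci lay on the same side, and a few did not. Pooled over libraries on the TMM scale, 31 of 35 (88.6%) had a ratio of hybrid to B73 below 1, with a median ratio of 0.303. Over all 13112 IDs with 5 or more counts, 52.2% had a ratio below 1 and the median was 0.884. Among the 11806 IDs whose totals lay between 5 and 79 counts, the range of the loci, 55.0% were below 1 with a median of 0.841. By library totals alone 34 of the 35 loci were below 1 with a median of 0.183, against 68.7% of all these IDs and a median of 0.534. The exact 95% interval of the ratio lay below 1 for 16 of the 35 loci on the TMM scale, where 17.6% of all IDs did so. No locus had an interval above 1, against 13.8% of all IDs. Both shares of all IDs take in IDs with more counts than any of these loci, and an interval narrows as counts rise.

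Both hybrid libraries were below both B73 libraries for 18 of the 35 24PHAS loci (51.4%) on the TMM scale, and above both for 2. Over all IDs with 5 or more counts, 29.4% were below and 28.1% above. By library totals alone 28 loci (80.0%) were below and 0 above, against 46.7% below and 16.2% above for all IDs. The 18 loci below on the TMM scale were also below by library totals. They were the 5 loci of the first fit, 24PHAS_NO174 and 24PHAS_NO214, and a further 11 with adjusted p-values above the threshold in the wider fit. Of these, 24PHAS_NO296 had 3 and 4 counts in the hybrid libraries, against 10 and 6 in B73 (edgeR adjusted p = 0.0562). It was past the threshold with the TMM factors of the first fit (0.0231) and with library totals (0.0123). 24PHAS_NO293 had 2 and 3 in the hybrid, against 7 and 4 in B73. The others were 24PHAS_NO246, 24PHAS_NO13, 24PHAS_NO206, 24PHAS_NO211, 24PHAS_NO250_NO251, 24PHAS_NO83, 24PHAS_NO81, 24PHAS_NO215 and 24PHAS_NO48, with 5 to 12 counts in total. Those below by library totals but not on the TMM scale were 24PHAS_NO22, 24PHAS_NO198, 24PHAS_NO120, 24PHAS_NO114, 24PHAS_NO24, 24PHAS_NO143, 24PHAS_NO20, 24PHAS_NO33, 24PHAS_NO5 and 24PHAS_NO11, so for these the side rested on the scaling.

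The loci with a ratio above 1 on the TMM scale were 24PHAS_NO196, 24PHAS_NO134, 24PHAS_NO114 and 24PHAS_NO271. 24PHAS_NO196 had 5 and 3 counts in the hybrid libraries, against 1 and 1 in B73, and its ratio of 2.02 had an interval from 0.403 to 19.5. 24PHAS_NO114 had 4 and 3 counts in the hybrid, against 1 and 2 in B73, with a ratio of 1.18 (0.269 to 7.06). By TMM scaling the hybrid libraries of these 2 loci lay above both B73 libraries, but by library totals 24PHAS_NO114 lay below and 24PHAS_NO196 overlapped. 24PHAS_NO198, with 5 and 8 counts in the hybrid and 3 and 4 in B73, had equal means within its spread, at 8.14 ± 4.59 CPM in the hybrid and 8.09 ± 0.372 CPM in B73. A difference was not detectable at this depth for any of these loci.

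Several loci differed as much between libraries of a genotype as between genotypes. 24PHAS_NO298 had 6 and 8 counts in the hybrid libraries, against 9 and 3 in B73, and its groups overlapped. 24PHAS_NO120 had 1 and 7 counts in the hybrid, against 4 and 5 in B73. 24PHAS_NO245 had 0 counts in both hybrid libraries, and all of its 5 counts came from the B73 RPI10 library. 24PHAS_NO215 had 0 in both hybrid libraries, against 4 and 1 in B73. For both, the exact 95% interval of the pooled ratio of hybrid to B73 ran from 0 to 0.551 on the TMM scale, for counting error alone, and most or all of the B73 counts behind it came from 1 library.

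**Figure D5:**
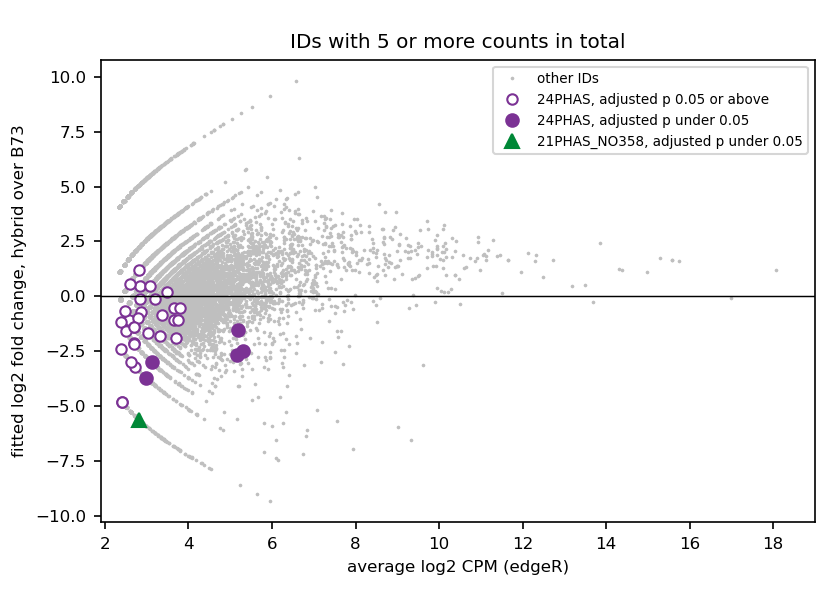
Fitted log2 fold change of the hybrid over B73 (vertical axis) against average log2 CPM (horizontal axis) for the 13112 IDs with 5 or more counts in total; grey points are other IDs, circles are 24PHAS loci (filled where the edgeR adjusted p was under 0.05) and the triangle is 21PHAS_NO358. Of the 35 24PHAS loci, 30 have a fitted value below 0, and the 5 filled circles are all below 0; the bands at low levels arise from whole-number counts.

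Among the 21PHAS loci only 21PHAS_NO358 had counts enough for a comparison. It had 0 and 0 counts in the hybrid libraries, against 4 and 5 in the B73 libraries, and 10.5 ± 0.957 CPM in B73 (SD, n = 2). The exact 95% interval of its pooled ratio of hybrid to B73 ran from 0 to 0.256 on the TMM scale and to 0.155 by library totals, for counting error alone. It reached the total of 5 counts through B73 alone, so its adjusted p in that fit (edgeR, 0.00703) describes a locus that the filter let in for being high in B73, and it is no measure of the class. DESeq2 gave an unadjusted p of 0.0205 and no adjusted p. Of all 22525 IDs, 12961 were counted in both hybrid libraries and 11188 in both B73 libraries. Few 21PHAS loci were counted again in the other library of a genotype. These were 2 in both hybrid libraries and 3 in both B73 libraries, with 21PHAS_NO358 among the 3. The next most counted, 21PHAS_NO27, had all of its 4 counts in the hybrid RPI11 library and 0 in the other 3. 21PHAS_NO144 had 0 and 0 counts in the hybrid libraries, against 1 and 2 in B73, while 21PHAS_NO159 and 21PHAS_NO231 each had 1 and 0 in the hybrid, against 0 and 2 in B73. Of the 64 loci with a count, 27 were counted in the hybrid only, 32 in B73 only and 5 in both, where 49 of the 64 had a single count in all. Of the 22374 IDs with a count, 4323 were counted in the hybrid only, 3240 in B73 only and 14811 in both.

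Of 29 names listed for the small RNA pathway, 2 matched an ID. SGS3, which a RefSeq gene table gives as another name of maize lbl1, had 9 and 13 counts in the hybrid libraries, against 14 and 18 in B73. At 13.7 ± 6.86 CPM in the hybrid and 37.1 ± 2.66 CPM in B73 (SD, n = 2), the groups did not overlap, and the log2 fold change was -1.48 (SE 0.49, edgeR adjusted p = 0.0230). It too passed the filter through the B73 libraries only. The call was lost in 11 of 19 other settings, over which the adjusted p ran from 0.00171 with library totals to 0.409 with DESeq2, and it did not survive leaving out the hybrid RPI10 library (log2 fold change -0.83, edgeR adjusted p = 0.194), the B73 RPI10 library (-1.41, 0.111) or the B73 RPI11 library (-1.60, 0.0963). The precursor zma-MIR2275c, of the family that triggers 24-nucleotide loci, had 1 count in the hybrid RPI11 library and 0 in the other 3 libraries, too few to compare. Dicer-like, Argonaute and RNA-dependent RNA polymerase genes matched no ID by name and are not analysed here.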

How the data were processed

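The authors deposited 1 table of raw counts, in whole numbers, with genes and loci as rows and 1 column per library. Per the submitters' processing notes, CASAVA 1.4, HISAT2 and UMI-tools and the genome B73 RefGen_v4 were used; their roles, the annotation and the treatment of reads that match several places are not given in the sources used here. Per the labels' protocols, read 1 carried an identifier of 10 bp and a barcode of 6 bp. Repeated or overlapping loci may therefore share or lose reads. Locus coordinates and sequences were not used here.

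Counts were fitted with edgeR 4.0.16 in R 4.3.3 (filterByExpr with a minimum count of 10, TMM scaling, quasi-likelihood test, genotype as the only term, all 4 libraries, Benjamini-Hochberg adjustment over all IDs tested, threshold 0.05). Standard errors were derived from the log2 fold change and F. CPM were computed from total times TMM factor. Ratios pooled over libraries, with exact 95% intervals, and numbers expected at lower depth (hypergeometric) came from scipy 1.17.1. DESeq2 1.42.0 was an alternative. The fits were tested on simulated data, in which no ID with as few counts as 24PHAS_NO174, 24PHAS_NO214 or 21PHAS_NO358 was set to differ. That test therefore does not cover the calls of these loci. The rule for named loci took the markers 24PHAS_NO180 and 21PHAS_NO358, the 5 most counted loci of each class, those that passed the filter and those with 5 or more counts whose groups did not overlap; others were named after their values were seen. The members and lists were chosen with earlier results of these data known.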

Additional observations from a re-analysis of the deposited data

How the results depend on the processing

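Direction was lower in the hybrid for each of the 5 tested 24PHAS loci in all 91 values computed under other settings, but 36 of these values were not past the threshold, 16 of 18 for 24PHAS_NO19 and 14 of 16 for 24PHAS_NO116. Against 5 of 5 tested loci called, there were 2 at a threshold of 0.01, 3 with DESeq2 size factors in edgeR, 2 of 7 with DESeq2, 3 of 3 when drawn to the smallest total, and 2 to 4 when a library was left out. None had 10 counts in every library. All 5 loci had passed the first filter through both B73 libraries, and only 24PHAS_NO15 reached its level in a hybrid library. That filter favoured loci lower in the hybrid, and the other settings reuse the same counts. The unchanged direction of these 5 loci is therefore no independent test of it. Among loci with 5 or more counts, the 5 calls (6.8% of all IDs lower) became 12 with library totals (15.8%) and 9 with the first fit's TMM factors (9.68%). For 21PHAS, 1 of 64 loci was called without a filter, where 3.64% of all IDs were lower. The 1 locus tested with 5 or more counts was also called. Of all IDs, 1662 were called, against 1104 at a threshold of 0.01, 401 of 970 with 10 or more counts in every library, 756 with DESeq2, 764 at the smallest total and 842 to 1318 when a library was left out.

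In the fit with a replicate block (the RPI code), 3 of 5 24PHAS loci were called, as were 1870 of all 3282 IDs (900, or 27.4%, lower); the calls of 24PHAS_NO19 and 24PHAS_NO116 were lost (edgeR adjusted p = 0.0646 and 0.0808). Among loci with 5 or more counts 6 of 35 were lower, against 6.35% of all IDs, and the 1 added was 24PHAS_NO296 (0.0321). Deviations of same-coded libraries from genotype means had a correlation of 0.293 over 3282 IDs; with 2 codes of unstated meaning, this does not show that the codes pair the libraries.

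The log2 ratio of the summed 24PHAS level ran from -2.31 to -1.22 when a library was left out, and was -2.38 with library totals; that of 21PHAS ran from -2.0 to -0.78, and was -1.98 with library totals. Mean 24PHAS loci detected were 49.0 in the hybrid and 56.0 in B73, against 24 and 33.5 at 2 or more counts, 16.5 and 23.5 at 3 or more, and 22.6 and 52.0 at the smallest total; at equal totals after TMM scaling the hybrid had 31.2. For 21PHAS, 17.0 and 20.0 became 1.5 and 3.5 at 2 or more counts and 0.5 and 1.0 at 3 or more; the hybrid had 4.94 at the smallest total and 7.96 at equal totals after TMM scaling. Left-out libraries gave 43 to 55 (hybrid) and 52 to 60 (B73) 24PHAS loci, and 15 to 19 and 15 to 25 21PHAS loci. To reach 50% of the 24PHAS counts took 9.5 loci in the hybrid and 7.0 in B73, or, among loci with 5 or more counts, 7.0 and 5.0, and in B73 8.5 without the most counted locus. The most counted 24PHAS locus in B73 held 14.9%, or 17.2% among loci with 5 or more counts; that of 21PHAS held 18.1%, or 10.2% without 21PHAS_NO358. Of 214 ratios of single loci, 12 left their counting interval, all when a hybrid library was left out, and no called ratio changed sides. The limits include the B73 depth, 2 libraries per genotype, the scaling and a genome taken from B73, only one of the hybrid's parents. The cause of these shifts was not tested, nor was the part of the genome used in the lower hybrid counts.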

Other observations

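The table lists 9 microRNA precursor IDs (zma-MIR), of which 8 had a count. Together they held 0 and 5 counts in the hybrid libraries (RPI10, RPI11), against 0 and 9 in the B73 libraries, with no more than 3 counts for any ID in a library. All of these counts came from the RPI11 libraries of both genotypes. They were 14 counts in all, zma-MIR159j and zma-MIR159k had equal counts in every library, and the split was not tested. The 24PHAS class showed no such split by code, with 109 and 160 counts in the hybrid and 238 and 204 in B73. The 21PHAS class had more counts in RPI11 in both genotypes, with 15 and 24 in the hybrid and 19 and 33 in B73.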
